A study of Mus musculus with 6 samples.

Results

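The NADPH oxidases are membrane enzymes that pass electrons from NADPH to oxygen and release superoxide or hydrogen peroxide. The subunits examined here were the 6 genes Cybb, Cyba, Ncf1, Ncf4, Rac2 and Nox4, taken by gene symbol from the 55416 genes of an RNA sequencing count table of mouse muscle. In the phagocyte enzyme, Cybb encodes the catalytic subunit NOX2, and Cyba encodes p22phox, the membrane partner that stabilizes it. On activation, a cytosolic complex that includes the Ncf1 and Ncf4 products (p47phox and p40phox) and a Rac GTPase, Rac2 in leukocytes, moves to this membrane pair. Nox4 encodes a separate catalytic subunit, which also needs p22phox but no cytosolic partners, and which gives mainly hydrogen peroxide. In skeletal muscle, oxidase subunits are known from the fibers themselves, from vessels and from resident or infiltrating leukocytes.

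The tibialis anterior (TA) muscle was taken from 24-month-old male mice on a C57BL/6N background, 3 wild-type (WT) and 3 SELENOW knockout (KO) animals, to compare gene expression between the genotypes in aging. The KO mice lack an exon of Selenow, removed with Cas9 and a pair of guide RNAs. WT libraries held 25351976, 29111213 and 25398186 counts and KO libraries 27815342, 27345022 and 27637175. Values for single libraries are always given in the order of replicates 1, 2 and 3. Levels are CPM, the count of a gene divided by the library size after TMM scaling, on a fixed scale. A gene was called differentially expressed (DEG) when edgeR's quasi-likelihood test gave an unadjusted p under 0.05 together with a fold change above 1.5 or below 0.7.

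Selenow itself stood at 268, 245 and 219 CPM across the WT libraries and at 193, 212 and 210 CPM across the KO libraries, so every KO library lay below every WT library. The gene was not a DEG (log2 fold change -0.25, SE 0.14, adjusted p = 0.604, edgeR). The counts are per gene, so loss of the deleted exon was not measured. Markers of muscle fibers were abundant, and Acta1, the skeletal actin, was at 8101 CPM per kilobase in WT and 7393 in KO.

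All 6 oxidase subunits were at low counts, from 1 to 97 per library, where 3 counts, taken as the floor, came to a CPM of 0.0934 to 0.122. The filter on low counts kept 5 of the 6 among 15623 tested genes, and Ncf4 was not tested. Of the 5, Cyba passed the DEG thresholds, lower in KO, and no member was a DEG higher in KO. Among all tested genes, 5.35% were DEGs, 3.14% lower and 2.21% higher in KO. By sign alone, Cybb, Cyba, Ncf1 and Rac2 had a negative log2 fold change and Nox4 a positive one, where 50.6% of tested genes had a negative one. The median over the 5 was -0.85 on the log2 scale, against -0.0042 over all tested genes. Both the median and the signs rested on WT replicate 3, without which the median was 0.025 and 2 of the 5 were negative. None of the 15623 genes had an adjusted p under 0.05 in the main edgeR fit (0% of tested genes; 363 genes with no filter on low counts), while 1545 had an unadjusted p under 0.05 and DESeq2 gave an adjusted p under 0.05 to 45 of the same genes. In bulk muscle, fewer cells of a type and less RNA per cell cannot be told apart.

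**Figure D1:**
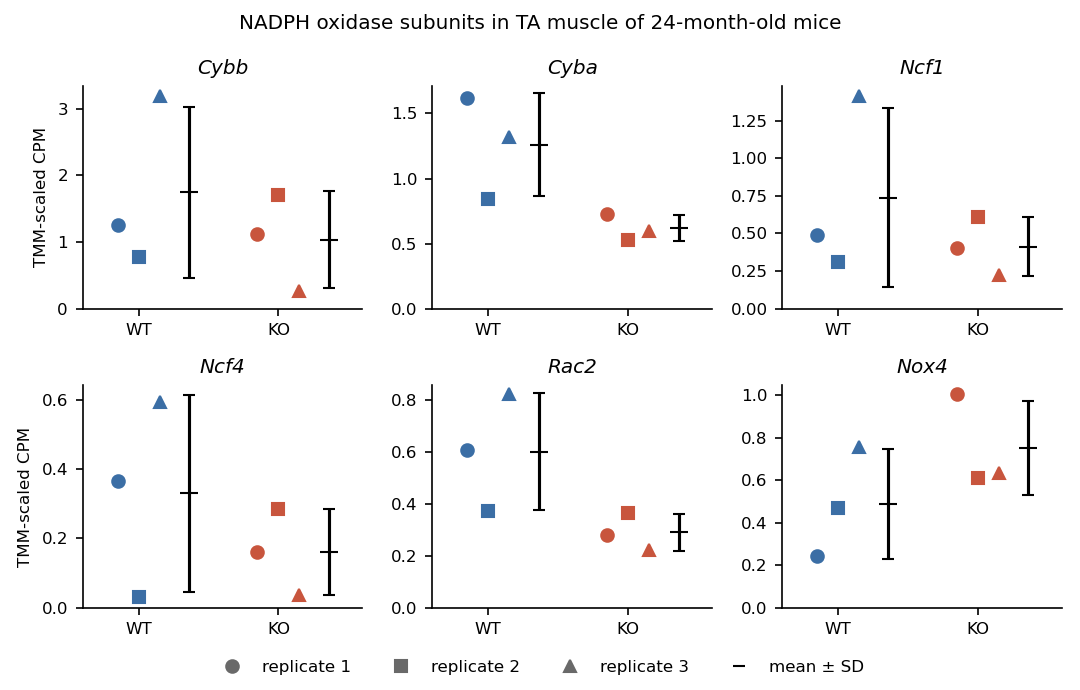
TMM-scaled CPM of the 6 subunits in each library (WT blue, KO red, marker shape by replicate number), with the mean and SD of each group in black (n = 3 each). The KO libraries lie wholly below the WT libraries for Cyba, and narrowly so for Rac2 (0.367 against 0.374), while the groups overlap for Cybb, Ncf1, Ncf4 and Nox4.

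The membrane pair was examined first. Cyba stood at 1.62, 0.841 and 1.32 CPM across the WT libraries and at 0.725, 0.530 and 0.598 CPM across the KO libraries. All KO libraries were thus below all WT libraries, and the KO libraries were close together while WT replicate 2 lay nearest to them. WT averaged 1.26 ± 0.394 CPM and KO 0.618 ± 0.0989 CPM (SD, n = 3 each). The log2 fold change was -1.01 (SE 0.37, unadjusted p = 0.0179, adjusted p = 0.415, edgeR). An exact permutation test, two-sided, gave p = 0.1, the smallest that 3 against 3 allow. The difference rests on few reads. WT replicate 2 had 27 counts (95% Poisson interval 17.8 to 39.3) and KO replicate 1 had 18 (10.7 to 28.4), so the intervals of the nearest libraries of the groups overlapped. Without WT replicate 1, the library with the highest CPM, Cyba was not a DEG, with a log2 fold change of -0.80 (unadjusted p = 0.0794, edgeR). With any other library left out it was.

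Cybb stood at 1.26, 0.778 and 3.19 CPM across the WT libraries and at 1.13, 1.71 and 0.262 CPM across the KO libraries. WT replicate 3 stood highest and KO replicate 3 lowest, and the other libraries of the groups were intermixed. The log2 fold change of -0.76 was about as large as its SE of 0.74 (unadjusted p = 0.339, edgeR). Without WT replicate 3 it was 0.025 (unadjusted p = 0.971, edgeR), so a difference between genotypes was not detectable in the catalytic subunit of the phagocyte enzyme. With no filter on low counts, on all 6 libraries, Cybb was a DEG (log2 fold change -0.77, unadjusted p = 0.0384, edgeR). Within WT, replicates 2 and 3 had 25 (95% Poisson interval 16.2 to 36.9) and 97 (78.7 to 118) counts of Cybb. Within KO, replicates 2 and 3 had 42 (30.3 to 56.8) and 7 (2.81 to 14.4). These are the lowest and highest libraries of each group, and their intervals, which cover counting error only, did not overlap.

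The levels of these partners were also compared per length. Cyba had 1.21 ± 0.379 CPM per kilobase in WT and Cybb 0.300 ± 0.220 (SD, n = 3 each). The level of Cyba was above that of Cybb in all 6 libraries. The ratio of Cyba to Cybb per kilobase was 7.21, 6.04 and 2.31 across the WT libraries and 3.59, 1.73 and 12.8 across the KO libraries. It varied widely within each genotype, with both the lowest and the highest ratio in KO libraries.

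To show what lies before the start sites of the pair and of Nox4, the other catalytic subunit, their promoters were taken from RefSeq (GRCm38.p6), whose table held 4 of the 6 subunits (Cyba, Cybb, Ncf1 and Nox4). The 250 bases before each start are given 5′ to 3′ on the strand of the gene, and capitals mark GGGCGG, the GC box, on either strand. They lie at chr8:122432941-122433190 (minus strand) for Cyba, chrX:9469325-9469574 (minus strand) for Cybb and chr7:87246399-87246648 (plus strand) for Nox4.
Cyba: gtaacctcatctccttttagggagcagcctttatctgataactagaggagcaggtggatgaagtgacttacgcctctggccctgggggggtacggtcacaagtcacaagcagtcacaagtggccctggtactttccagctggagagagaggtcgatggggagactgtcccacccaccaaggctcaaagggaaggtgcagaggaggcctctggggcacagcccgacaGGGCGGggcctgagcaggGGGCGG
Cybb: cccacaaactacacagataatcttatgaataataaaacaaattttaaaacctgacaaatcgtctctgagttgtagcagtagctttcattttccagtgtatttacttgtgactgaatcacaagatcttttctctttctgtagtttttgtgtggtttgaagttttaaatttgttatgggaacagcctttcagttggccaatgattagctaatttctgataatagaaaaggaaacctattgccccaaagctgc
Nox4: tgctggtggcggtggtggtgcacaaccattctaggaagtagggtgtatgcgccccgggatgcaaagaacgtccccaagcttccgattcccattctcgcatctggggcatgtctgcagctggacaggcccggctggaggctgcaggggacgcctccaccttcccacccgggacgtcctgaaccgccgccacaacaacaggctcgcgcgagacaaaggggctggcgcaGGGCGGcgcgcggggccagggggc

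The base composition of these windows differed widely. G and C made up 60% of the Cyba window, 34% of the Cybb window and 67.2% of the Nox4 window, against a median of 52.4% over 32851 promoters. The Cybb window was thus poorer in G and C than most, with 3.87% of promoters below it, whereas 72.1% lay below Cyba and 86.5% below Nox4. GGGCGG, letters chosen after these promoters had been seen, was found before the start of Cyba, Ncf1 and Nox4 and of 32.7% of all promoters. Over the whole 300-base window, which runs 50 bases past the start, none of the 4 promoters held GAGGAAGT (a PU.1-like ETS site), TGACTCA (an AP-1 site) or CACGTG (an E-box) on either strand. These letters were in 3.20%, 5.20% and 7.15% of all promoters. GAGGAA, the core that GAGGAAGT also contains, was in 28.3% of promoters. Among the 4 it was found in Cybb alone, on the opposite strand, at bases 10 to 15 counted from the start. The site, in capitals as its reverse complement, lies in the 30 bases at chrX:9469298-9469327 (GRCm38.p6, minus strand), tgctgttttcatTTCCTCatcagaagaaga.

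Next, the cytosolic partners were examined. Ncf1, whose product is the organizer that docks on p22phox, stood at 0.487, 0.311 and 1.42 CPM across the WT libraries and at 0.403, 0.612 and 0.224 CPM across the KO libraries. As for Cybb, WT replicate 3 stood highest and KO replicate 3 lowest, and the groups overlapped. The log2 fold change was -0.85 (SE 0.60, unadjusted p = 0.187, edgeR), and 0.056 without WT replicate 3. In addition, 408 exonic bases of Ncf1, 11.1% of its counted length, are shared with Gtf2ird2 on the opposite strand. Gtf2ird2 had 137, 172 and 156 counts across the WT libraries and 120, 109 and 121 across the KO libraries. The sources used here do not state that counting used strand, so reads of this stretch cannot be told apart between the genes.

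Ncf4, a phosphoinositide-binding partner in the same complex, had 9, 1 and 18 counts across the WT libraries and 4, 7 and 1 across the KO libraries. The KO counts of 1 to 7 lay within the WT range of 1 to 18, and WT replicate 2 and KO replicate 3 were under the floor. A difference in Ncf4 was not detectable at this depth.

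Rac2 stood at 0.608, 0.374 and 0.823 CPM across the WT libraries and at 0.282, 0.367 and 0.224 CPM across the KO libraries. Each KO library was below each WT library, but WT replicate 2 and KO replicate 2 were nearly equal, with 12 counts (95% Poisson interval 6.20 to 21.0) and 9 (4.12 to 17.1). WT averaged 0.602 ± 0.225 CPM and KO 0.291 ± 0.0717 CPM (SD, n = 3 each; exact permutation test, two-sided, p = 0.1). The log2 fold change of -1.04 (SE 0.48) was close to that of Cyba but missed the DEG thresholds (unadjusted p = 0.0531, adjusted p = 0.513, edgeR). Leaving out WT replicate 2 brought it past them, with a log2 fold change of -1.29 (unadjusted p = 0.0283, edgeR). None of the other 5 fits without a library called it, and without WT replicate 3 the log2 fold change was -0.73 (unadjusted p = 0.223, edgeR). Cyba and Rac2 were thus 2 of the 5 tested members with every KO library below every WT library, a pattern found in 7.87% of all tested genes. No member had every KO library above every WT library, as 7.53% of tested genes did.

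Rac1, the widely expressed GTPase that can serve NOX enzymes in place of Rac2, was far more abundant in this tissue. Its level was 21.5 CPM per kilobase in WT, against 0.194 for Rac2, a ratio of the means of 111, and the ratio was 232 in KO. In single libraries the ratio was 101, 196 and 79.2 for WT and 230, 185 and 313 for KO, so the groups overlapped. Rac1 did not differ detectably between genotypes, at 96.5 ± 8.85 CPM for WT against 98.1 ± 3.82 CPM for KO (SD, n = 3 each; log2 fold change 0.024, SE 0.13, adjusted p = 0.966, edgeR). These GTPases are paralogs, and how reads that map to both were counted was not given in the sources used here.

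Nox4 was the member with a positive log2 fold change. It stood at 0.243, 0.467 and 0.758 CPM across the WT libraries and at 1.01, 0.612 and 0.636 CPM across the KO libraries. KO replicate 1 was highest and WT replicate 1 lowest, and WT replicate 3 lay above 2 of the 3 KO libraries, so the groups overlapped. The log2 fold change was 0.59 (SE 0.47, unadjusted p = 0.227, edgeR) and ranged from 0.30 to 1.04 as each library was left out. In counts, Nox4 had 6 to 23 per WT and 15 to 25 per KO library. Per kilobase it was the least abundant member in WT, at 0.0578 ± 0.0304 (SD, n = 3), with 0.992% of tested genes below it.

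**Figure D2:**
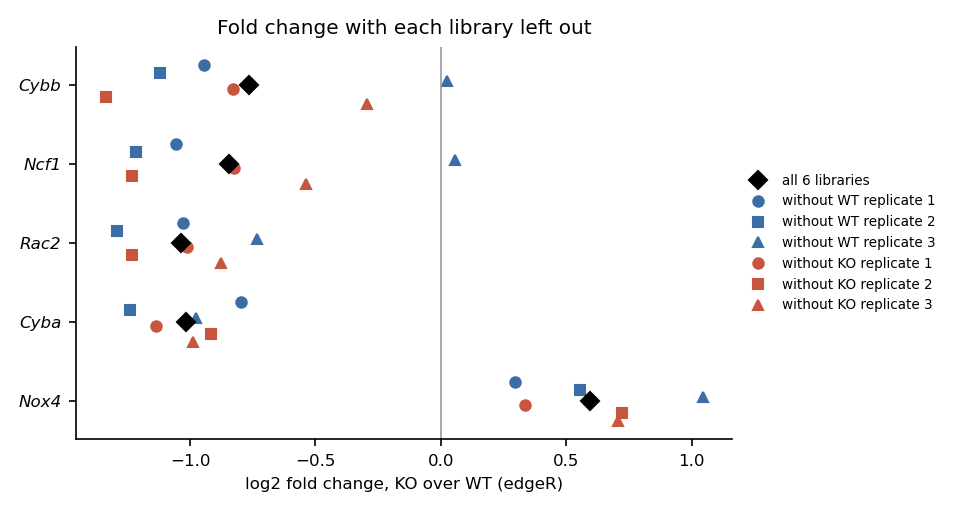
Log2 fold change of the 5 tested subunits, KO over WT, from edgeR fits on all 6 libraries (black diamonds) and without each library in turn (blue for a WT library, red for a KO library, shape by replicate number). Without WT replicate 3, Cybb and Ncf1 move to 0.025 and 0.056, while Cyba stays between -1.24 and -0.80 in all 6 fits.

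In order of level per kilobase, Cyba came first in WT, followed by Cybb, Ncf1 (0.202 ± 0.162), Rac2 (0.194 ± 0.0725), Ncf4 (0.163 ± 0.140) and Nox4 (SD, n = 3 each). Cyba exceeded the next member by more than the SD of either. From Cybb down to Nox4, neighbours in this order differed by less than the larger of their SDs. Cyba was at a middling level for this tissue, above 44.2% of tested genes per kilobase, while 15.1% lay below Cybb, 9.58% below Ncf1 and 9.04% below Rac2. In KO, Cyba again came first (0.595 ± 0.0952 CPM per kilobase) and Cybb second (0.178 ± 0.126), and Nox4 (0.0887 ± 0.0262) stood between Rac2 (0.0938 ± 0.0231) and Ncf4 (0.0799 ± 0.0614) with no gap beyond the spread.

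**Figure D3:**
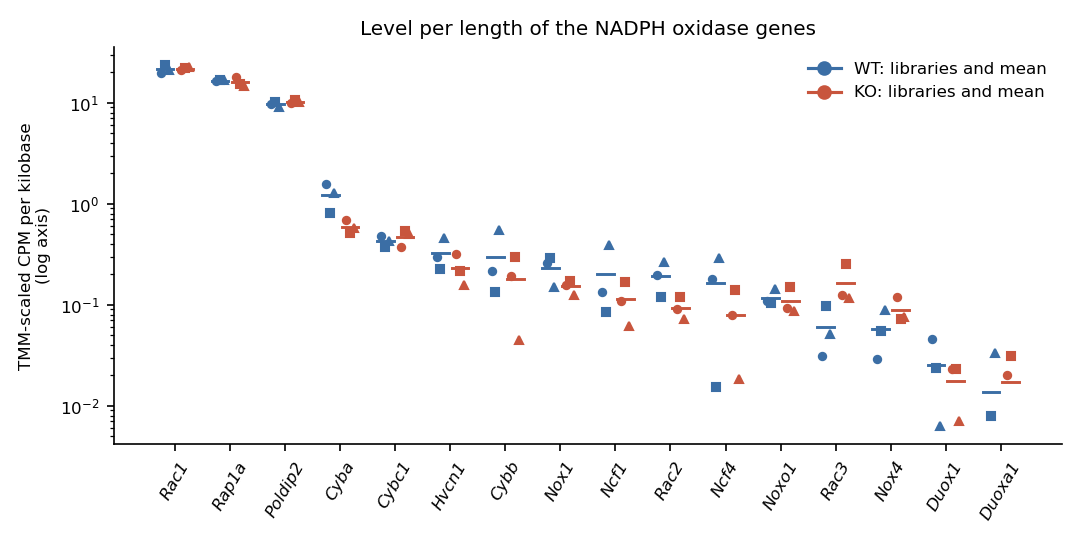
TMM-scaled CPM per kilobase of counted length, on a log axis, for the oxidase genes with counts in both genotypes (points, libraries with at least 1 count, shape by replicate number; lines, group means; WT blue, KO red). Rac1, Rap1a and Poldip2 form an upper tier, Cyba follows at 1.21 in WT and 0.595 in KO, and the other subunits lie lower with wide spread.

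The rest of the oxidase family was described from a list of 14 further genes, of which 6 were tested and none was a DEG. The median log2 fold change of the tested genes was -0.015. Nox3, Duox2 and Duoxa2 had 0 counts in all 6 libraries, which allows up to 3 counts in each. Hvcn1, the proton channel that balances charge during the burst, had a log2 fold change of -0.51 (SE 0.39). Its value ranged from -0.80 without KO replicate 1 to -0.18 without WT replicate 3. Nox1, a further catalytic homolog, had a log2 fold change of -0.62 (SE 0.42). The log2 fold changes of the other tested genes of the list were smaller than their SE. They were -0.053 for the GTPase Rap1a, 0.085 for Poldip2, a p22phox-binding activator of NOX4, and 0.15 for Cybc1, the chaperone of NOX2.

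For signalling to the phagocyte oxidase, 18 of 24 genes were tested, with 1 DEG lower and 1 higher in KO and a median log2 fold change of -0.31. WT replicate 3 held the highest CPM of 9 of the 18, and without it the median was -0.0035, with the same counts of DEGs. Without WT replicate 2 the median was -0.55, with 3 DEGs lower and none higher. Prkcd, the protein kinase C that phosphorylates p47phox, stood at 6.12, 6.72 and 6.95 CPM across the WT libraries and at 4.51, 3.87 and 3.03 CPM across the KO libraries. The groups did not overlap and were far apart for their spread (log2 fold change -0.80, SE 0.18, adjusted p = 0.275, edgeR). Tiam1, an exchange factor that loads Rac with GTP, was the gene past the thresholds as higher, at 2.17 ± 0.0570 CPM for WT against 3.43 ± 1.09 CPM for KO (SD, n = 3 each; log2 fold change 0.66, SE 0.25, adjusted p = 0.440, edgeR). Without KO replicate 3 or WT replicate 2, Tiam1 was not a DEG. The more abundant Mapk14 and Prkca, both kinases of p47phox, were at -0.095 and 0.11. The leukocyte receptors Fcgr2b and Fcgr3 and their signalling chain Fcer1g were at -0.99, -0.91 and -0.83 on the log2 scale, none a DEG. All 3 were highest in WT replicate 3, and without it they were at -0.24, -0.29 and -0.43. Fcgr2b was a DEG lower in KO without KO replicate 1, and Fcgr3 without WT replicate 2 or KO replicate 2.

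**Figure D4:**
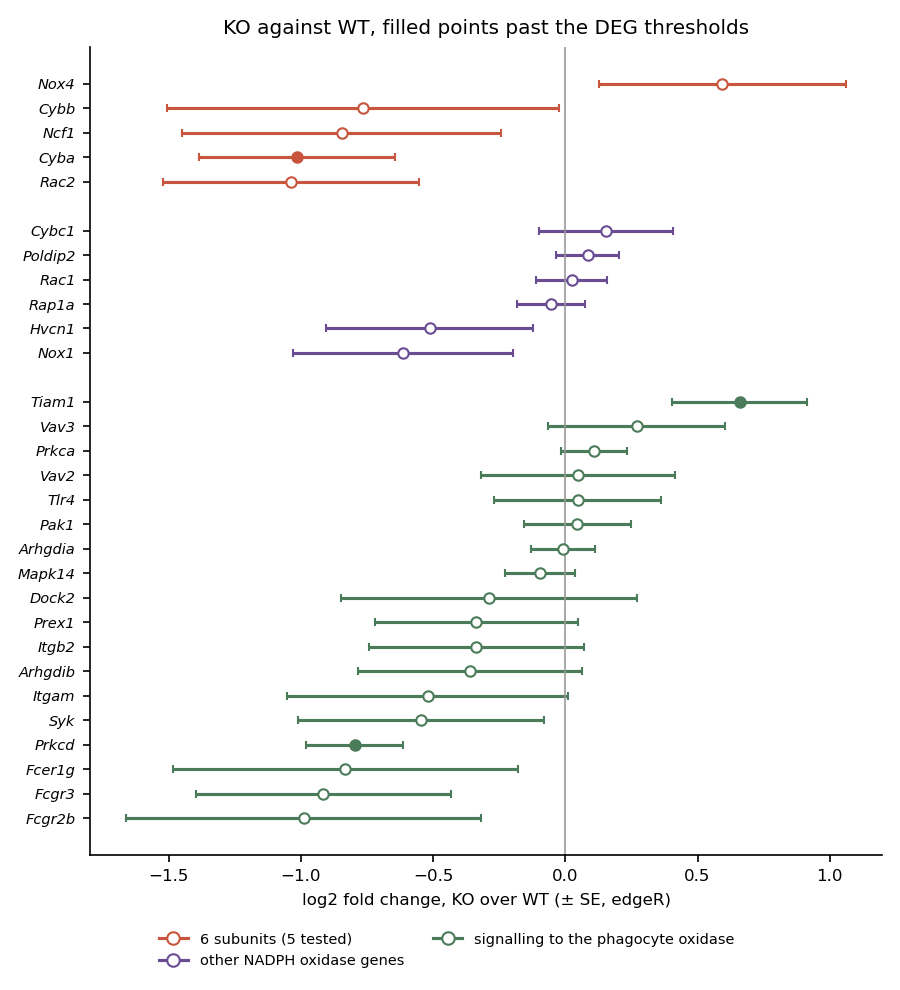
Log2 fold change, KO over WT, with its SE from edgeR for the tested subunits (red), the other oxidase genes (purple) and the signalling genes (green), with filled points for DEGs. Cyba, Prkcd and Tiam1 are filled, and the intervals of Rac1, Rap1a and Poldip2 around 0 are narrow beside those of the subunits.

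NADPH, the substrate of the enzyme, comes from the pentose phosphate pathway, malic enzymes and isocitrate dehydrogenases. All 11 genes of the supply list were tested, none was a DEG, and the median log2 fold change was -0.0099. Idh2, the mitochondrial isocitrate dehydrogenase, missed the fold threshold (log2 fold change 0.53, unadjusted p = 0.0309, edgeR) and was a DEG higher in KO without WT replicate 1 or KO replicate 1. The gene with the highest level per kilobase was Me1, at 32.6 in WT and 32.4 in KO. G6pdx, which opens the pentose phosphate pathway, was at 1.26 ± 0.429 CPM for WT against 1.20 ± 0.239 CPM for KO (SD, n = 3 each). Of 19 genes that remove superoxide and peroxide, all tested, 1 was a DEG: Txn1, thioredoxin, was lower in KO (log2 fold change -0.54, SE 0.17, adjusted p = 0.340, edgeR). Without WT replicate 1, or without KO replicate 2, it was not a DEG. Of the 19, 17 had a negative log2 fold change, with a median of -0.17, and without KO replicate 2 these were 14 and -0.079. The superoxide dismutases Sod1 and Sod2 were at -0.15 and 0.10, neither a DEG.

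Because phagocytes are the main source of NOX2 and its partners, leukocyte markers were set beside the subunits. Of 18 macrophage and monocyte markers 16 were tested, and 2 were DEGs lower in KO (Ccr2 and Csf1r), as were 3.14% of all tested genes. None of the 16 was a DEG higher, and 13 had a negative log2 fold change, with a median of -1.07. Their summed CPM was 41.4, 29.0 and 100.3 across the WT libraries and 41.0, 26.1 and 20.9 across the KO libraries. The sum of the 5 phagocyte oxidase subunits (all but Nox4) was 4.34, 2.33 and 7.34 across the WT libraries and 2.70, 3.51 and 1.35 across the KO libraries. Both sums were highest in WT replicate 3 and lowest in KO replicate 3. WT replicate 3 also held the highest CPM of 14 of the 16 tested markers and of 3 of the 5 tested subunits, against 16.3% of all tested genes. Lyz2, the most abundant marker at 14.8 CPM per kilobase in WT and 5.44 in KO, had a CPM of 37.2 in WT replicate 3 and of 4.04 to 14.9 in the other libraries. Defining markers such as Csf1r and Adgre1 were detected in every library. The list was not uniform: Cd68, Cd163 and Ly6c2 had positive log2 fold changes, of 0.052, 0.27 and 0.25, none a DEG. Without WT replicate 3, the median over the 16 markers was -0.45, with 14 of them negative and none a DEG. Some other fits, such as that with the replicate block, again called 2 lower in KO. Others called more, up to 8 of 18 without WT replicate 2 (where 1 was higher) and with no filter on low counts. In these fits 3.84% and 3.66% of all tested genes were DEGs lower in KO.

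The subunits were also expressed per 100 CPM of the macrophage and monocyte sum. Cybb then came to 3.04, 2.68 and 3.19 across the WT libraries and 2.75, 6.56 and 1.25 across the KO libraries. The WT libraries, which differed widely in Cybb itself, were close together on this scale, and the KO libraries were not. Cyba came to 3.92, 2.89 and 1.31 across the WT libraries and 1.77, 2.03 and 2.87 across the KO libraries. On this scale the WT and KO libraries overlapped for Cyba and Rac2, as they did for Cybb, Ncf1 and Ncf4. Nox4, by contrast, came to 0.588, 1.61 and 0.756 across the WT libraries and 2.46, 2.34 and 3.05 across the KO libraries. It was the subunit with every KO library above every WT library on this scale, whereas its CPM overlapped. The macrophage and monocyte sum averaged 56.9 CPM in WT and 29.3 CPM in KO. Dividing by it thus raises KO values on average, and no conclusion on Nox4 was drawn from this scale. The part of macrophage content in the differences of Cyba and Rac2 was not tested.

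**Figure D5:**
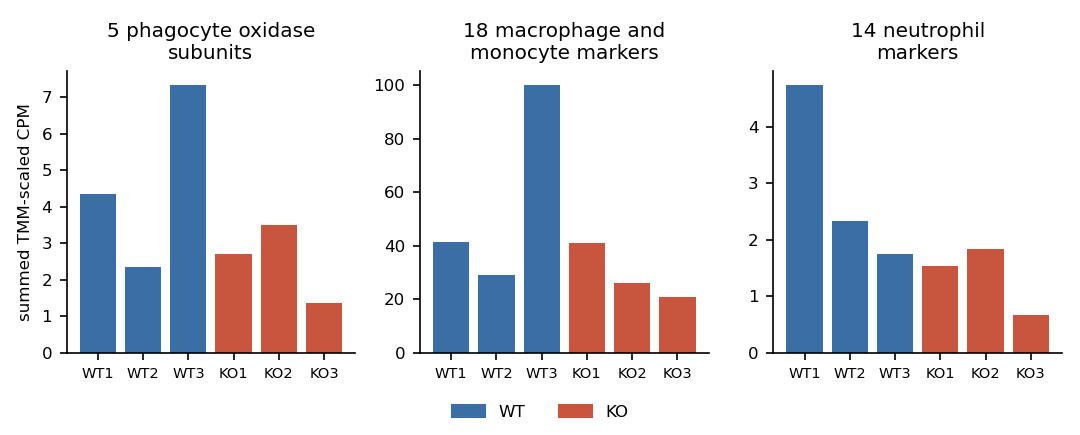
Summed TMM-scaled CPM in each library (WT blue, KO red, labelled by replicate number) of the 5 phagocyte oxidase subunits, the 18 macrophage and monocyte markers and the 14 neutrophil markers. WT replicate 3 is highest in the first and second sums, at 7.34 and 100.3, and WT replicate 1 in the neutrophil sum, at 4.75.

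Neutrophils use the same oxidase, and their markers were scarce. Of 14, 3 were tested and 2 were DEGs lower in KO (S100a9 and Csf3r), as were 3.14% of all tested genes. The median log2 fold change was -1.50 over the 3, and the defining markers Ly6g and Elane were at 0 in all libraries. Without WT replicate 1, or without KO replicate 3, none of the 3 was a DEG, whereas without WT replicate 3 all 3 were. Among the untested markers with counts, mean CPM was higher in KO for Camp, Mmp8, Mmp9, Mpo and Ngp. It was lower in KO for S100a8, Cxcr2, Retnlg and Ltf. These untested genes had 0 to 10 counts per library. S100a9, the most abundant of the list per kilobase, stood at 1.05, 0.654 and 0.329 CPM across the WT libraries and at 0.242, 0.326 and 0.0748 CPM across the KO libraries. The groups did not overlap, though WT replicate 3 and KO replicate 2 were nearly equal. The summed CPM of the list was 4.75, 2.33 and 1.75 across the WT libraries and 1.53, 1.83 and 0.673 across the KO libraries. WT replicate 1, whose absence took Cyba out of the DEGs, held the highest neutrophil sum and the highest Cyba. Among the other libraries the orders differed. WT replicate 3 had Cyba at 1.32 CPM and a neutrophil sum of 1.75, while KO replicate 2, lowest in Cyba at 0.530 CPM, had a sum of 1.83. The part of neutrophil content in the difference of Cyba was not tested.

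Finally, the genes most like each tested subunit over the 6 libraries were sought among about 12720 genes with a mean CPM of at least 1, by the root mean square (RMS) difference of centred log2 CPM. Nearest to Cybb were Lcp1, Gm49339 and Lilr4b, at 0.28, 0.31 and 0.35, while Cybb itself varied by 1.05 around its mean. Nearest to Ncf1 were Mrc1, Gm41396 and Fcgr3, at 0.17, 0.18 and 0.20. Gm7658 and P2rx4 were among those nearest to Cyba, at 0.090 and 0.20. Gm7658, the nearest to Cyba, averaged 2.32 CPM in WT and 1.14 CPM in KO, a closeness that the search itself selects for. Nearest to Rac2 were Fos, Hcls1 and Olfml3, at 0.17, 0.20 and 0.20, and nearest to Nox4 were AC125059.3, Marveld1 and Gm16185, at 0.17, 0.20 and 0.21. The neighbours named shared the sign of log2 fold change of their subunit, which the search itself favours. No gene was among the 3 nearest of more than 1 subunit.

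By position in the count table (GRCm39), the subunits are scattered over 5 chromosomes. Cyba (ENSMUSG00000006519.12) lies at chr8:123151515-123159669 on the minus strand, Cybb (ENSMUSG00000015340.11) at chrX:9301491-9354010 on the minus strand and Ncf1 (ENSMUSG00000015950.14) at chr5:134248907-134258479 on the minus strand. Nox4 (ENSMUSG00000030562.18) lies at chr7:86895304-87047918 on the plus strand. Ncf4 (ENSMUSG00000071715.13) and Rac2 (ENSMUSG00000033220.8) are both on chromosome 15, at chr15:78129001-78146780 on the plus strand and chr15:78443367-78456983 on the minus strand. Selenow (ENSMUSG00000041571.11) is on the chromosome of Nox4, at chr7:15651133-15656327 on the minus strand.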

How the data were processed

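Total RNA of TA muscle from 3 WT and 3 KO mice was sequenced by the authors as paired ends, aligned with HISAT2 and counted per gene with featureCounts. The authors deposited raw counts, without normalization, for 55416 genes. The submitters' processing notes name GRCm39, and the study's methods GRCm38. Symbols were matched for 52083 genes. The WT column without a number was taken as replicate 1. The study gives 3 mice per genotype. From the deposited counts, edgeR (version 4.0.16; filterByExpr, TMM, robust quasi-likelihood test, Benjamini-Hochberg over 15623 genes) compared genotypes, and the SE was the log2 fold change over the root of F. DESeq2 (version 1.42.0) was an alternative. Log2 CPM used a prior count of 1. Poisson intervals are exact, and intervals and floors cover counting error only. The named genes were every subunit, Selenow, 2 to 5 genes per list (DEGs first, then the most abundant) and the 3 most similar genes per tested subunit; some genes are not reported here. Hvcn1, Nox1, Rap1a, Poldip2, Cybc1, the Fc receptor genes, G6pdx, Sod1, Sod2 and Adgre1 were named for their role, and Idh2 for its calls without a library. Cd68, Cd163 and Ly6c2 were named for their sign, and Flt1 for its unadjusted p. The members and lists were chosen with earlier results of these data known. Steps were checked on simulated data.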

Additional observations from a re-analysis of the deposited data

How the results depend on the processing

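Cyba was lower in KO and past the DEG thresholds under all 8 alternatives of test, filter, scaling, robust estimation and block, with log2 fold changes from -1.03 to -0.99. Of the fits without 1 library, 5 of 6 called it. Cybb, Ncf1, Rac2 and Nox4 kept their sign under the 7 alternatives that tested them, and the filter of 10 counts in every library left Cyba alone. Without each library, Cybb ranged from -1.34 to 0.025 and Ncf1 from -1.23 to 0.056, the highest values being those without WT replicate 3. Rac2 ranged from -1.29 to -0.73 and was called in 1 of the 6 fits. Of the list genes named as DEGs, Prkcd, Myh11 and Cd3e stayed DEGs in all 6 fits, and each of the others was lost in at least 1, a check added after seeing the data. With no filter on low counts, Cybb was also a DEG (unadjusted p = 0.0384, edgeR), giving 2 members past the thresholds, and Ncf4 had a log2 fold change of -1.02 (unadjusted p = 0.151, edgeR). Leaving out each library gave 0 to 2 members past them. The count of DEGs, 836, became 1780 with no filter, where more genes were tested, 315 with an absolute log2 fold change over 1, and 814 to 1072 without each library. Genes with an adjusted p under 0.05 numbered 45 with DESeq2 on the same genes, 41 with DESeq2 on all genes, 363 with no filter, 4 with at least 10 counts in every library and 0 to 242 without each library. With the replicate block, 890 genes were DEGs, 1 gene had an adjusted p under 0.05 and 1 member was a DEG. The labels name no pairing of the mice. Same-numbered deviations had correlations of 0.060, 0.044 and -0.074, and differently numbered ones ran from -0.140 to 0.093. These values cannot decide whether the mice were paired. Cyba and Rac2 had every KO library below every WT library under the other scalings (total counts, DESeq2 size factors, TMM without mitochondrial genes), a check chosen after seeing the data. The cause of these changes was not tested. Counts under 100 per library limit every subunit.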

Other observations

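Markers of cell types in which Nox4 is known were described as well. All 10 endothelial markers were tested and had positive log2 fold changes, with a median of 0.29 and no DEG. Cdh5 and Flt1 missed the fold threshold alone (log2 fold change 0.50 and 0.41, unadjusted p = 0.00835 and 0.00694, edgeR). Both had every KO library above every WT library. Without WT replicate 3, 4 of the 10 were negative and the median was 0.12, whereas without WT replicate 1 the median was 0.39 and 2 were DEGs higher in KO. Without WT replicate 2, 1 was. Cdh5, the cadherin of endothelial junctions and the most abundant of the list per kilobase, was at 19.6 ± 4.17 CPM for WT against 27.7 ± 2.62 CPM for KO (SD, n = 3 each). Of 9 smooth muscle and pericyte markers 8 were tested, and 2 were DEGs higher in KO (Rgs5 and Myh11), as were 2.21% of all tested genes. Of the 8, 5 had every KO library above every WT library (7.53% of all tested genes did), and the median was 0.45. The fits without each library called 1 to 4 of them, and Rgs5 was not a DEG without WT replicate 2, WT replicate 3 or KO replicate 2. Their summed CPM was 197, 154 and 168 across the WT libraries and 246, 293 and 224 across the KO libraries. Nox4 was highest in KO replicate 1, and the smooth muscle and pericyte sum in KO replicate 2. The part of vessel content in the values of Nox4 was not tested.

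Fibroblast markers, 9 of 9 tested with no DEG and a median of -0.33 (0.090 without WT replicate 3), were all highest in WT replicate 3, the library with the highest Cybb, Ncf1, Ncf4 and Rac2. Their summed CPM there was 366, against 99.3 to 215 in the other libraries. Of 9 B cell and plasma cell markers 3 were tested, with Jchain a DEG higher and Ighm a DEG lower in KO. Jchain rested on KO replicate 1, at 2.62 CPM, while KO replicates 2 and 3, at 0.530 and 0.486, lay within the WT range of 0.243 to 0.593. Without KO replicate 1 it was not a DEG (log2 fold change 0.40, unadjusted p = 0.492, edgeR). The libraries of the genotypes also overlapped for Ighm. Of 10 T and NK cell markers, Cd3e alone was tested and was a DEG higher in KO (log2 fold change 1.16). The filter on low counts left out the other 9, and Cd3d and Cd3g, which encode partner chains of the Cd3e product, had 0 to 2 and 0 to 1 counts per library against 20 to 84 for Cd3e. The 10 skeletal muscle fiber markers held no DEG and had a median of 0.051. The share of counts from the mitochondrial genome averaged 32.1% ± 4.54 for WT against 38.0% ± 2.49 for KO (SD, n = 3 each), with overlapping ranges.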
